A study of Homo sapiens with 12 samples.

Results

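The genes examined were ID1, ID2 and ID3, SMAD6 and SMAD7, and SKI, SKIL and TGIF1, which are the ID genes and the genes whose products restrain SMAD signalling. They were chosen by gene symbol, and all 8 were found among the 54628 genes of the count table. Their mRNA was measured by RNA-seq in 12 libraries of HUDEP-2 cells, a line of immortalised erythroid precursors from human cord blood whose growth needs signals from the Kit receptor. The libraries form 4 groups of 3 replicates. All cells carried a lentivirus that expresses dCas9 fused to the KRAB repressor from the EF1a promoter and GFP, by which infected cells were sorted, and the methods do not describe single clones. In the sgControl groups the virus carried a scrambled guide, and in the sgEGR1 groups a guide to an element upstream of EGR1, an immediate early transcription factor gene. All cells were expanded in medium with 50 ng/mL stem cell factor (SCF, the Kit ligand), 4 U/mL EPO, 0.4 µg/mL dexamethasone and 1 µg/mL doxycycline, and were then starved for 5 h. The SCF groups then received 50 ng/mL SCF for 1 h, and the PBS groups received PBS. The comparisons ask which of the 8 genes respond to acute Kit signalling, and whether the response differs where EGR1 is repressed.

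The guide to EGR1 is shown because it defines the sgEGR1 groups, in lower case and with the PAM next to the matched site in capitals. The spacer came from the study's oligonucleotide list and was searched in hg38.
sgEGR1: ggatgacagcgatagaacccCGG
The sgEGR1 spacer had 1 exact match, on the plus strand at chr5:138464830-138464849, which ends 630 bases before the annotated start of EGR1. The paper states a larger distance from the EGR1 start for the targeted element, and the source of this difference was not tested.

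Ligands of the BMP and TGF-beta family bind serine/threonine kinase receptors, which phosphorylate receptor SMADs. These join SMAD4 and act on transcription in the nucleus. ID1, ID2 and ID3 are classical targets of BMP signals, and they encode helix-loop-helix proteins without a basic region that sequester E proteins, the partners of TAL1 in erythroid cells. SMAD6 and SMAD7 are inhibitory SMADs that are induced by the pathway and act on its receptors, while SKI, SKIL (also called SnoN) and TGIF1 are nuclear corepressors that bind SMAD complexes and recruit histone deacetylases.

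Totals ranged from 23.5 to 32.04 megacounts per library. Levels are given as CPM, counts per megacount of the library total after TMM scaling, and a count of 3, taken as the floor of detection, corresponded to 0.0937 to 0.128 CPM. Of the 10 erythroid markers examined, 10 passed the filter on low counts, and their summed level was 7795 to 8954 CPM. The largest parts of this sum were TFRC (3270 to 3763 CPM) and SLC4A1 (1034 to 1448 CPM), so it does not describe each marker. In sgEGR1 cells this sum was 8547 to 8938 CPM after PBS and 7795 to 8437 CPM after SCF, without overlap. Of single tested genes, 21.2% were separated in this way in sgEGR1 cells and 19.6% in sgControl cells. The sgControl ranges of the sum overlapped, at 8370 to 8954 CPM after PBS and 7966 to 8609 CPM after SCF. PF4, PPBP and GP9 of megakaryocytes and MPO and ELANE of myeloid cells were at 0 in all libraries. All 4 mast cell markers passed the filter, with summed levels of 147 to 358 CPM whose ranges overlapped among all groups. Most of this sum came from TPSAB1 (84.9 to 208.8 CPM) and TPSB2 (61.5 to 150.4 CPM). CPA3 was at 0 to 0.563 CPM and MS4A2 at 0.300 to 1.55 CPM. The part of these markers in the results was not tested. EGR1, which checks the labels, was at 5.99 to 10.9 CPM in sgControl PBS, 171 to 239.5 CPM in sgControl SCF, 0.977 to 2.04 CPM in sgEGR1 PBS, and 40.4, 57.4 and 203.6 CPM in replicates 1, 2 and 3 of sgEGR1 SCF. The library labelled sgEGR1 SCF replicate 3 thus goes against its label, and the tests that rest on it are repeated with it left out. Replicate 1 of each group differed from the other replicates in 26.6% of tested genes, so the SCF response was also fitted with a term for replicate 1.

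Per length, as CPM per kb of annotated exon, ID2 had the highest level, with a median of 66.5 over the 12 libraries (60.7 to 83). SKI followed at 13.05 (11.1 to 14.5) and ID1 at 4.56 (3.33 to 5.59), and the ranges of these 3 genes did not overlap. TGIF1 at 1.17 (1.06 to 1.52) and SKIL at 1.08 (0.383 to 2.51) overlapped each other and lay below ID1. SMAD6 at 0.179 (0.0549 to 0.236), ID3 at 0.109 (0 to 0.217) and SMAD7 at 0.0675 (0 to 0.184) were lowest, and each of these overlapped its neighbour in the order. This order depends on the exon length used, which was 8.121 kb for TGIF1 and 1.233 kb for ID1. In CPM, TGIF1 (8.61 to 12.3) lay above ID1 (4.11 to 6.89). The filter on low counts kept 15492 genes and 7 of the 8 members, all but ID3.

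**Figure D1:**
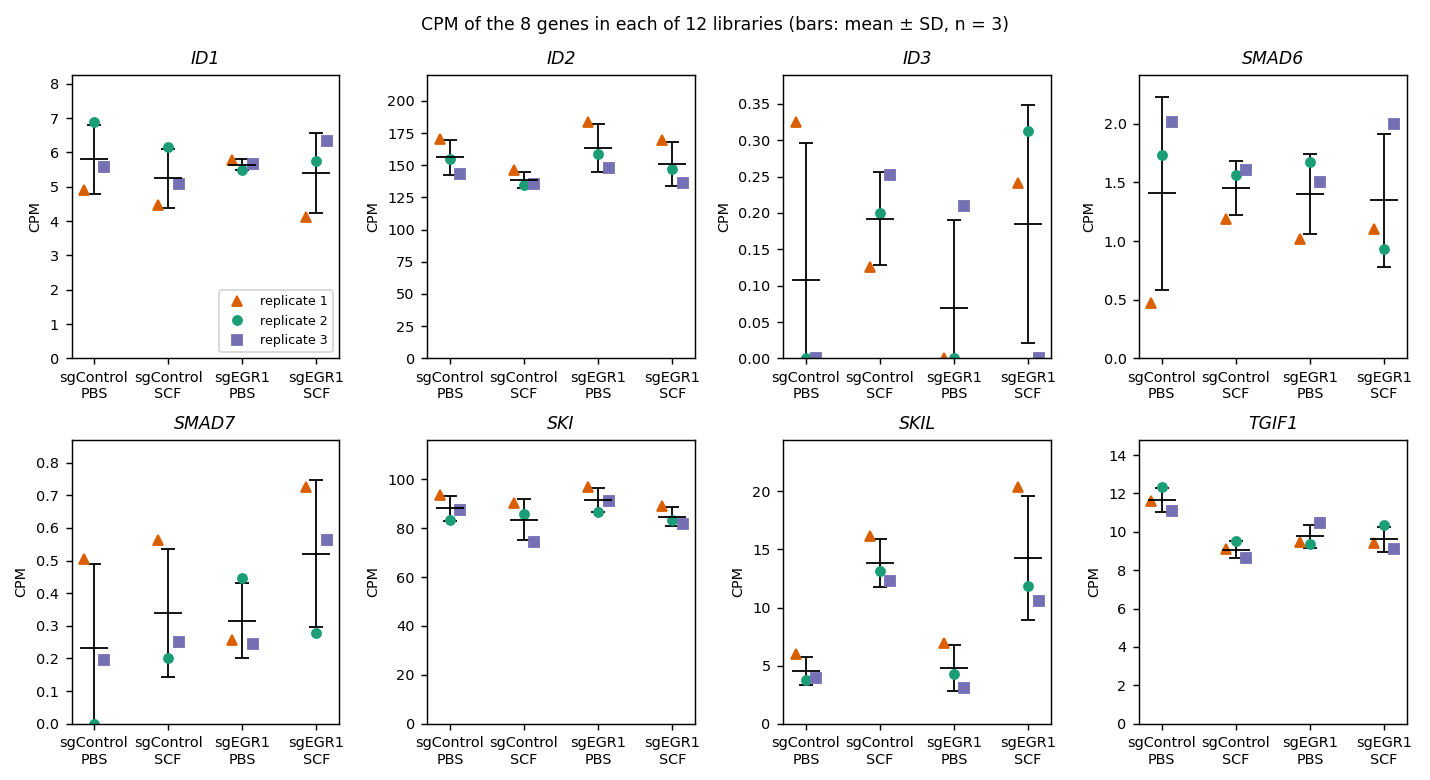
CPM of each of the 8 genes (vertical axes, each from 0) in the 4 groups, with 1 symbol per library, shaped and coloured by replicate number, and bars for mean ± SD (n = 3). SKIL is the gene whose SCF libraries (10.5 to 20.4 CPM) all lie above its PBS libraries (3.11 to 6.98 CPM) with both guides.

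SKIL was the member that rose after SCF, about 3-fold with either guide. It lies on chromosome 3 (170357342 to 170396835, plus strand, GRCh38). In sgControl cells its level was 5.96, 3.74 and 3.96 CPM after PBS and 16.1, 13.1 and 12.3 CPM after SCF in replicates 1, 2 and 3. In sgEGR1 cells it was 6.98, 4.25 and 3.11 CPM after PBS and 20.4, 11.9 and 10.5 CPM after SCF. The PBS and SCF libraries did not overlap, a separation shared by 19.6% of tested genes in sgControl cells, 21.2% in sgEGR1 cells and 6.9% over both guides, and replicate 1 was highest in each group. The ratio of SCF to PBS between libraries with the same number was 2.71, 3.51 and 3.10 in sgControl cells and 2.92, 2.79 and 3.39 in sgEGR1 cells. The same number was not taken to pair a PBS with an SCF library. The libraries hold RNA of whole cultures, in which fewer cells of a type and less RNA per cell cannot be told apart.

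By the quasi-likelihood F test of edgeR, SKIL rose by a log2 fold change of 1.60 in sgControl cells (SE 0.31, 95% interval 0.92 to 2.28, Benjamini-Hochberg adjusted p 0.0171) and of 1.58 in sgEGR1 cells (SE 0.31, 95% interval 0.91 to 2.26, edgeR adjusted p 0.0194). It was the only called member of the 7 tested in each comparison, where 2.89% of all tested genes were called in sgControl cells and 2.59% in sgEGR1 cells. Averaged over both guides, SKIL rose 3.02-fold (95% interval 2.16 to 4.20, edgeR adjusted p 0.000872), in a comparison that called 9.03% of genes. With a term for replicate 1 the log2 fold changes were 1.63 and 1.58 (edgeR adjusted p 1.4e-05 and 2.0e-05). When the library labelled sgEGR1 SCF replicate 3 was left out, SKIL had a log2 fold change of 1.77 in sgEGR1 cells (edgeR adjusted p 0.0240) and of 1.68 on average (edgeR adjusted p 0.00112).

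The calls within a single guide depended on single libraries. In sgControl cells the call was lost without PBS replicate 2, PBS replicate 3 or SCF replicate 1, with log2 fold changes of 1.48, 1.51 and 1.48 and edgeR adjusted p of 0.0865, 0.0883 and 0.0586. With sgEGR1 the call was lost without the same 3 libraries of that guide, with log2 fold changes of 1.51, 1.35 and 1.24 and edgeR adjusted p of 0.0931, 0.0870 and 0.0592. The average over both guides was called under all 19 alternatives, with a log2 fold change between 1.42 and 1.78.

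SKI, the paralog of SKIL, was not called. It lies on chromosome 1 (2227388 to 2310213). In sgControl cells SKI was at 93.5, 83.3 and 87.7 CPM after PBS and at 90.5, 85.7 and 74.5 CPM after SCF. With sgEGR1 it was at 96.8, 86.8 and 91.3 CPM after PBS and at 89.2, 83.3 and 81.6 CPM after SCF. The groups overlapped, and the averaged log2 fold change was -0.095 (95% interval -0.21 to 0.018, edgeR adjusted p 0.317), which leaves room for a fall of up to 13.5% and a rise of up to 1.27%. When sgEGR1 SCF replicate 3 was left out this became -0.080 (edgeR adjusted p 0.480). Measured within each library and per length, SKIL amounted to 4.22% ± 0.889 (SD, n = 3) of SKI after PBS and 13.6% ± 1.03 after SCF in sgControl cells. With sgEGR1 the share amounted to 4.26% ± 1.58 after PBS and 13.7% ± 4.44 after SCF. SKIL thus stayed the less abundant of the 2 paralogs in all 12 libraries, from 2.80% to 18.8% of SKI.

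TGIF1, a homeodomain corepressor, had a lower level after SCF in sgControl cells that did not pass the test. The gene lies on chromosome 18 (3411608 to 3459978). In sgControl cells it was at 11.6, 12.3 and 11.1 CPM after PBS and at 9.10, 9.50 and 8.61 CPM after SCF. These groups did not overlap, as for 19.6% of tested genes, and the ratios between libraries with the same number were 0.785, 0.771 and 0.776. The log2 fold change was -0.36 (95% interval -0.56 to -0.17, edgeR adjusted p 0.0526). It was called lower with DESeq2 (adjusted p 0.0231) and with a term for replicate 1 in edgeR (adjusted p 0.0206), and over the 20 alternatives the adjusted p ranged from 0.0206 to 0.181. Averaged over both guides the log2 fold change was -0.19 (edgeR adjusted p 0.0851, or 0.0445 with a term for replicate 1). With sgEGR1 SCF replicate 3 left out it was -0.17 (edgeR adjusted p 0.179), and the call with the term was lost (edgeR adjusted p 0.101).

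In sgEGR1 cells TGIF1 was at 9.45, 9.35 and 10.5 CPM after PBS and at 9.42, 10.3 and 9.09 CPM after SCF. These groups overlapped, with a log2 fold change of -0.022 (95% interval -0.22 to 0.17, edgeR adjusted p 0.956), or 0.020 (edgeR adjusted p 0.974) without the library that goes against its label. The sgEGR1 PBS libraries all lay below the sgControl PBS libraries, a separation found in 9.31% of genes, with a log2 fold change of -0.26 (edgeR p 0.0142, adjusted p 0.999). The SCF response of TGIF1 was higher with sgEGR1 than with sgControl by 0.34 on the log2 scale (95% interval 0.065 to 0.62, edgeR p 0.0198), or 0.38 without the library labelled sgEGR1 SCF replicate 3. With a replicate block, the response difference was 0.34 (95% interval 0.071 to 0.61) and the PBS difference between guides was -0.26 (95% interval -0.44 to -0.066). After adjustment over all genes the response difference had p 1.000, or 0.986 with the block, by edgeR and was not called. The fall in sgControl cells, the PBS difference between guides and the response difference all use the sgControl PBS libraries, at 11.1 to 12.3 CPM. The other groups lay at 8.61 to 10.5 CPM, so these are not separate observations.

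**Figure D2:**
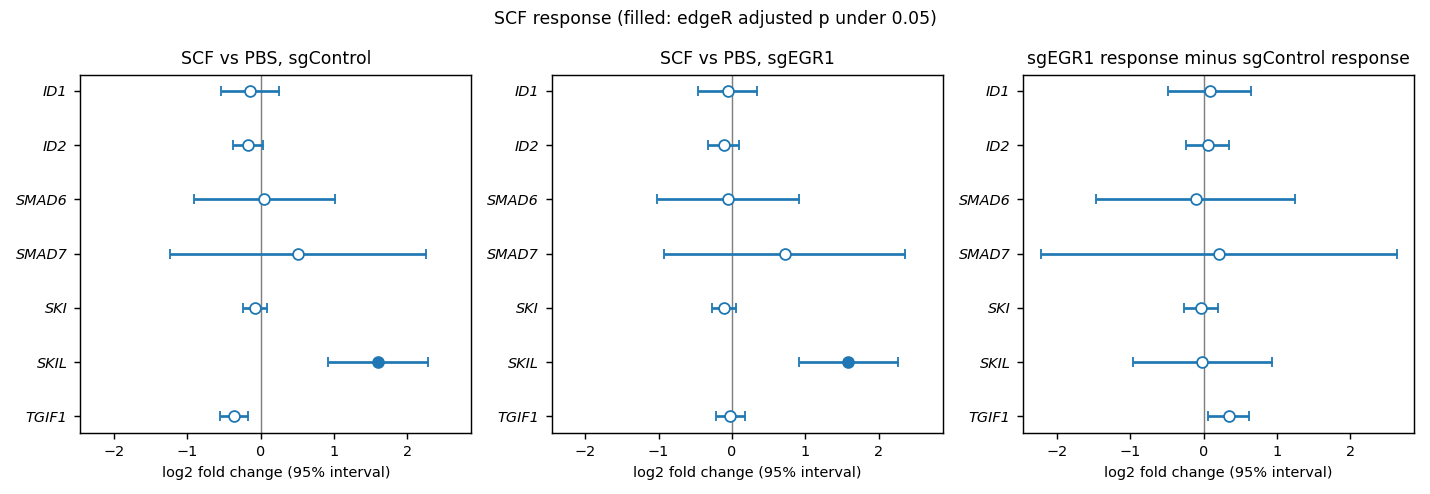
Log2 fold change after SCF (horizontal axis, with 95% intervals) of the 7 tested members in sgControl cells (left) and sgEGR1 cells (centre), and the difference between these responses (right). Filled points passed an edgeR adjusted p of 0.05, and SKIL at 1.60 and 1.58 is the gene that did so.

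Among the ID genes, ID2 was by far the most abundant. It lies on chromosome 2 (8678845 to 8684461), where the lncRNA ID2-AS1 shares exon sequence in antisense, which makes the ID2 counts uncertain if strand was not used in counting. In sgControl cells ID2 was at 170.2, 155 and 143 CPM after PBS and at 146, 134 and 135 CPM after SCF. The sgEGR1 values were 184, 159 and 148 CPM after PBS and 169, 147 and 136 CPM after SCF. The groups overlapped. Ratios of SCF to PBS between libraries with the same number ran from 0.858 to 0.948, but the numbers were not taken to pair PBS with SCF libraries.

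The averaged log2 fold change of ID2 was -0.14 (95% interval -0.29 to 0.0035, edgeR adjusted p 0.232), and it was not called with either guide. With a term for replicate 1, ID2 was called lower in sgControl cells (log2 fold change -0.17, edgeR adjusted p 0.0436) and on average (-0.14, edgeR adjusted p 0.00927), but not in sgEGR1 cells (-0.12, edgeR adjusted p 0.158). Leaving out sgEGR1 SCF replicate 3 gave an averaged ID2 value of -0.11 (edgeR adjusted p 0.423), and of -0.12 with the term (edgeR adjusted p 0.0279). The fit with the term on all libraries called 8.32% of all genes in sgControl cells, 8.56% in sgEGR1 cells and 18.5% on average.

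ID1 was expressed at a lower level without a detectable response. The gene lies on chromosome 20 (31605283 to 31606515). In sgControl cells it was at 4.91, 6.89 and 5.59 CPM after PBS and at 4.47, 6.17 and 5.09 CPM after SCF. Levels with sgEGR1 were 5.79, 5.48 and 5.65 CPM after PBS and 4.11, 5.76 and 6.34 CPM after SCF. All groups overlapped, and the averaged log2 fold change was -0.10 (95% interval -0.38 to 0.18, edgeR adjusted p 0.713), or -0.17 (edgeR adjusted p 0.544) without sgEGR1 SCF replicate 3. Per length, ID1 amounted to 4.35% to 8.38% of ID2 in the same library.

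ID3, which lies on chromosome 1 (23557926 to 23559501, minus strand), was near the limit of detection. Its counts in replicates 1, 2 and 3 were 9, 0 and 0 in sgControl PBS, 4, 6 and 8 in sgControl SCF, 0, 0 and 6 in sgEGR1 PBS, and 7, 9 and 0 in sgEGR1 SCF. It was at 0 in 5 of 12 libraries, which allows a level of up to 0.0937 to 0.128 CPM, and a difference was not detectable at this depth.

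The inhibitory SMADs were also low. SMAD6 (chromosome 15, 66702236 to 66782849) was at 0.470, 1.73 and 2.02 CPM in sgControl PBS and at 1.19, 1.57 and 1.60 CPM in sgControl SCF. In sgEGR1 cells it was at 1.02, 1.68 and 1.50 CPM after PBS and at 1.10, 0.936 and 2.00 CPM after SCF. These values rest on 13 to 64 counts per library, and replicate 1 was the lowest library of every group except sgEGR1 SCF. The averaged log2 fold change was -0.0015 (95% interval -0.68 to 0.68, edgeR adjusted p 1.000), so a change of up to 1.60-fold in either direction lies within the interval. It became -0.20 (95% interval -0.90 to 0.50, edgeR adjusted p 0.798) without sgEGR1 SCF replicate 3, where SMAD6 was highest in that group.

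SMAD7 (chromosome 18, 48919853 to 48950965, minus strand) had still fewer counts. They were 14, 0 and 5 in sgControl PBS, 18, 6 and 8 in sgControl SCF, 6, 12 and 7 in sgEGR1 PBS, and 21, 8 and 18 in sgEGR1 SCF. The groups overlapped, and the averaged log2 fold change was 0.61 with a 95% interval from -0.58 to 1.81 (edgeR adjusted p 0.580), or 0.59 (edgeR adjusted p 0.670) without sgEGR1 SCF replicate 3. A rise as large as that of SKIL, whose averaged value was 1.59, lay within this interval, so the depth did not resolve the response of SMAD7.

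Over the 7 tested members, the median log2 fold change after SCF was -0.077 in sgControl cells and -0.055 in sgEGR1 cells, against -0.0060 and -0.00048 over all tested genes. In sgControl cells 3 members had positive and 4 negative values, and in sgEGR1 cells 2 had positive and 5 negative values.

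Between guides, 0 of the 7 tested members were called by edgeR after PBS and 0 after SCF. At an unadjusted p under 0.05 there was 1 member after PBS, TGIF1, and 0 after SCF, where 4.62% and 2.33% of all genes passed. DESeq2 called 0 members in each comparison. The background was 0% of genes called by edgeR in both comparisons, and 0.129% and 0.0323% by DESeq2. EGR1 itself was called lower with sgEGR1 by DESeq2 after PBS (log2 difference -2.56, DESeq2 adjusted p 0.0381), but not after SCF. By edgeR with all libraries EGR1 was not called between guides after either treatment. Its log2 difference in edgeR was -2.59 after PBS (edgeR p 0.00721, adjusted p 0.999) and -1.03 after SCF (edgeR p 0.0406, adjusted p 1.000). Without the library labelled sgEGR1 SCF replicate 3 these were -2.59 (edgeR adjusted p 0.0658) and -2.08 (edgeR adjusted p 0.0189), and 0 members were called. For the difference of the SCF response between guides, edgeR called 0 members, with TGIF1 as the 1 member at an unadjusted p under 0.05, where 1.98% of all genes passed, and DESeq2 called 0. The background of edgeR calls was again 0%, and that of DESeq2 0.0258%.

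SKIL levels overlapped between guides after either treatment. After PBS, the mean SKIL level was 4.55 ± 1.22 CPM (SD, n = 3) with sgControl and 4.78 ± 1.99 CPM with sgEGR1. After SCF these means were 13.8 ± 2.03 CPM and 14.2 ± 5.34 CPM. The log2 difference between guides was 0.057 after PBS (95% interval -0.64 to 0.76) and 0.041 after SCF (95% interval -0.60 to 0.68). The difference of the responses was -0.017 (95% interval -0.96 to 0.93), an interval that runs from a 0.513-fold to a 1.90-fold response. Without the library labelled sgEGR1 SCF replicate 3 this difference was 0.16 and the difference after SCF was 0.22. These fits did not use the replicate number. With a replicate block, the log2 difference between guides was 0.039 after PBS (95% interval -0.28 to 0.36) and -0.0090 after SCF (95% interval -0.28 to 0.26). The difference of the SKIL responses was -0.048 with the block (95% interval -0.46 to 0.37). In sgEGR1 SCF replicates 1 and 2, EGR1 was at 40.4 and 57.4 CPM and SKIL at 20.4 and 11.9 CPM, while in the 3 sgControl SCF libraries EGR1 was at 171 to 239.5 CPM and SKIL at 12.3 to 16.1 CPM. Between these 2 and 3 libraries the SKIL levels overlapped and the EGR1 levels did not. EGR1 still rose after SCF in these sgEGR1 replicates, to 19.8 and 51.3 times the PBS library of the same number. Replicate 1 was also the highest SKIL library of each group. The part of EGR1 in the SKIL response was not tested.

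**Figure D3:**
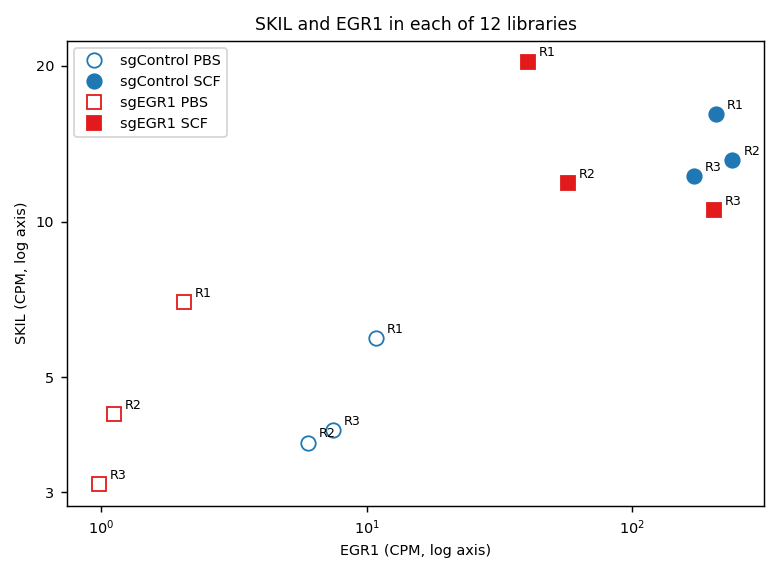
SKIL (vertical log axis, CPM) against EGR1 (horizontal log axis, CPM), with 1 point per library marked by replicate number (R1 to R3), open after PBS and filled after SCF. SCF libraries lie above PBS libraries for SKIL with both guides, and sgEGR1 SCF R3 lies at the EGR1 level of the sgControl SCF libraries.

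Sequence around the annotated starts was searched for the sites of factors that act downstream of Kit or of SMAD signals. RefSeq windows of GRCh38.p14, from 250 bases before to 50 bases after a start, were matched by symbol for 7 of the 8 members, all but SKI. Both strands were searched for an EGR site (GCGTGGG), an AP-1 site (TGANTCA), a cyclic AMP response element (CRE, TGACGTC), a BMP SMAD site (GGCGCC) and the CArG box. These occurred in 6.98%, 7.72%, 3.43%, 19.2% and 1.30% of all 34943 windows. The SKIL window held a CRE, matched by overlapping sites on both strands, and a BMP SMAD site, and the ID2 window held an EGR site on the minus strand. TGIF1 had matches to the AP-1 letters in 3 of its 7 alternative windows, each with A or T at the central base that the search left free. ID1, ID3, SMAD6 and SMAD7 had no match to the letters searched. The stretches below show the sites of SKIL, the gene that rose, and of ID2, in lower case with the matched bases in capitals.
SKIL CRE: cgaggactcggTGACGTCAgagggctgtgt
SKIL BMP SMAD site: gcccgcgcgcgcGGCGCCgccgctggctcc
ID2 EGR site: ggaagaaccaagCCCACGCcccgcgcccgc
The CRE stretch lies at chr3:170357650-170357679 on the plus strand, with the site at positions -54 to -47 from the start, where -1 is the base before it, inside an exon of an alternative SKIL transcript. The BMP SMAD stretch lies at chr3:170357513-170357542, with the site at -190 to -185, in the same exon. The ID2 stretch lies at chr2:8681899-8681928, with the site at -145 to -139, inside an exon of an alternative ID2 transcript. A match describes letters in these windows and says nothing about binding in these cells.

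The wider pathway was described with 57 genes in 6 lists of ligands, receptors, signal SMADs, regulators of SMAD signalling, partners of ID proteins and partners of the corepressors. Of these, 46 were tested. By edgeR 0 of the 46 were called after SCF in sgControl cells and 0 in sgEGR1 cells, with 8 genes at an unadjusted p under 0.05 in each (14.3% and 15% of all genes), and DESeq2 called 2 and 4 (4.9% and 4.99% of all genes). Averaged over both guides edgeR called 8 genes (17.4% of the 46, against 9.03% of all tested genes), 4 higher and 4 lower, and DESeq2 also called 8 (11.6% of all genes). Each single library left out lowered the edgeR count, to between 3 and 6, and without sgControl SCF replicate 1 the 3 called genes were 6.52% of the 46, below the 7.28% of all genes called there. Without the library labelled sgEGR1 SCF replicate 3, 5 were called (10.9%, against 6.95%). The median averaged log2 fold change of the lists was -0.028, against -0.0045 for all genes. None of the changes in the lists was as large as that of SKIL.

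Receptors held the largest of these called changes. In sgControl cells ACVR1B, a type I receptor for activin and Nodal, was at 11.04 ± 1.77 CPM after PBS (SD, n = 3) and at 16.1 ± 2.09 CPM after SCF. Its levels in sgEGR1 cells were 12.1 ± 0.993 and 16.2 ± 2.79 CPM. It rose by an averaged log2 fold change of 0.48 (edgeR adjusted p 0.0124). TGFBR1, the type I receptor for TGF-beta, rose by 0.29 (edgeR adjusted p 0.0255), and ACVR2B, a type II activin receptor, fell by 0.24 (edgeR adjusted p 0.0366). The 6 other tested receptors were not called. ENG, a coreceptor, had the highest level per length of this list, at a median of 31.6 CPM per kb.

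Among 12 tested regulators of SMAD signalling, 2 rose and 2 fell. The log2 fold change of WWP1, which encodes a ubiquitin ligase that acts with SMAD7 on receptors, was 0.18 (edgeR adjusted p 0.00575), and that of ZFYVE9, which encodes the receptor anchor SARA, was 0.25 (edgeR adjusted p 0.0241). TRIM33, a ubiquitin ligase of SMAD4, fell by 0.16 (edgeR adjusted p 0.0148), and PPM1A, a phosphatase of receptor SMADs, fell by 0.095 (edgeR adjusted p 0.0339). STRAP had the highest level per length of this list, at 72.9 CPM per kb. Of the corepressor partners, SIN3A, the scaffold of a histone deacetylase complex, fell by 0.12 (edgeR adjusted p 0.0280), and the other 5 were not called. The calls of ACVR1B, WWP1 and TRIM33 were kept under all 19 alternatives. Those of TGFBR1, ZFYVE9, SIN3A, ACVR2B and PPM1A were kept under 15, 13, 8, 7 and 5. Without sgEGR1 SCF replicate 3 the changes of ACVR2B, SIN3A and PPM1A were -0.23, -0.11 and -0.089 and were not called (edgeR adjusted p 0.0847, 0.0810 and 0.0924).

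The 5 tested ligands, the 6 signal SMADs and the 8 partners of ID proteins gave 0 calls on average by edgeR. TGFB1 was the ligand with the highest level per length, at 36.1 CPM per kb, and SMAD2 was the leading signal SMAD, at 3.72 CPM per kb. LDB1, a cofactor of the TAL1 complex, led the partners of ID proteins at 153 CPM per kb, and HDAC1 led the corepressor partners at 35.1. BMP7, TGFB2, INHBA, INHBB, BMPR1B and ACVRL1 had 0 counts in all 12 libraries, while BMP2, BMP4, INHBE, TGFBR3 and PMEPA1 reached at most 6 counts and were not tested.

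**Figure D4:**
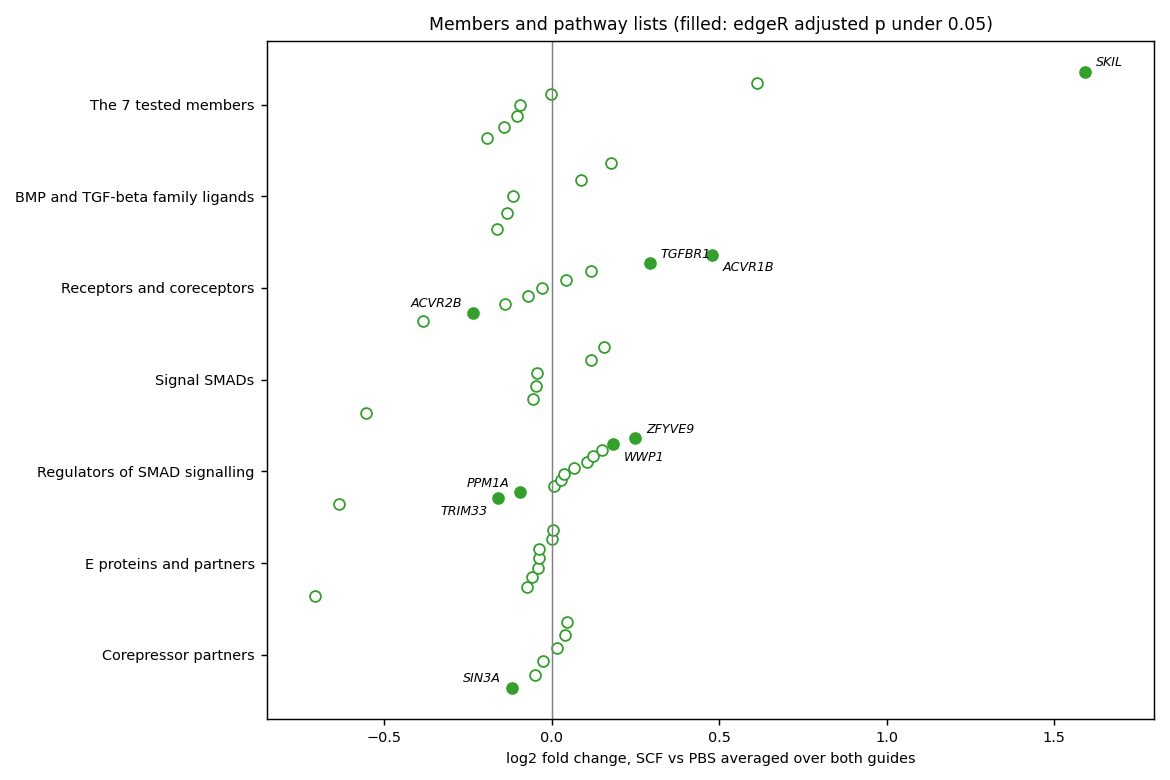
Averaged log2 fold change after SCF (horizontal axis) of the 7 tested members and of the 46 tested genes of 6 pathway lists (rows), 1 point per gene, spread vertically within a row for legibility. Filled, named points passed an edgeR adjusted p of 0.05, with SKIL at 1.59 farthest from 0.

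Apart from SCF, the members differed by replicate number. Of the 7 tested, edgeR called 4 between replicate 1 and replicates 2 and 3, against 26.6% of all genes, with 3 higher (13.1% of all genes) and 1 lower (13.4%) in replicate 1. SKIL was 1.61-fold higher in replicate 1 (95% interval 1.38 to 1.86, edgeR adjusted p 0.000257), ID2 1.15-fold (edgeR adjusted p 0.000775) and SKI 1.10-fold (edgeR adjusted p 0.0138). SKI lost its call without sgControl SCF replicate 1 (edgeR adjusted p 0.0712). SMAD6 was lower by 0.78 on the log2 scale, a fold of 0.581 (95% interval 0.394 to 0.856, edgeR adjusted p 0.0399), but this was called in only 4 of 15 alternatives, with an adjusted p of up to 0.166. Without sgEGR1 SCF replicate 3 it was -0.69 and not called (edgeR adjusted p 0.0845). The ranges of the 4 replicate 1 libraries and the 8 others overlapped for every member, where 11.8% of all genes did not overlap. In the pathway lists 20 of 46 genes (43.5%) were called by replicate number, 7 higher and 13 lower. The labels give no batch for these numbers.

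**Figure D5:**
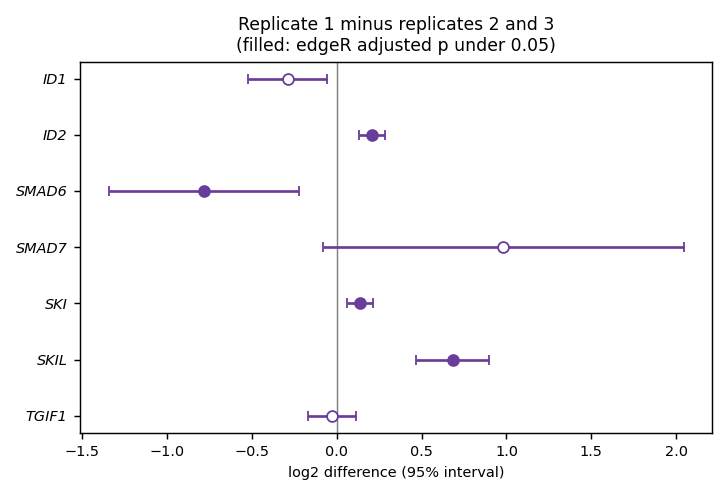
Log2 difference of replicate 1 from replicates 2 and 3 (horizontal axis, with 95% intervals) for the 7 tested members, from a model with 1 coefficient per group. Filled points passed an edgeR adjusted p of 0.05, with SKIL at 0.68, ID2 at 0.21 and SKI at 0.14 higher and SMAD6 at -0.78 lower.

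Over the 12 libraries, the genes with the pattern most like SKIL were DNAJB1, a heat shock co-chaperone gene, and G3BP2, with a Pearson r of log2 CPM of 0.981 and 0.980 among 9861 other genes of at least 5 CPM. For TGIF1 these were C10orf95-AS1 (0.861) and CAMK2G (0.848), for SKI AP3D1 (0.954) and NUMA1 (0.944), for ID2 BMF (0.947) and GTF3C5 (0.942), and for ID1 CDC37 (0.906) and RUVBL2 (0.904). For SMAD6 they were TM9SF2 (0.946) and RAD54L (0.890), and for SMAD7 TNIK (0.957) and IPO9 (0.923), where the members' own counts were low. Among the members, ID2 and SKI were the most alike (r 0.713), and ID1 and SMAD7 (r -0.708) and SKIL and TGIF1 (r -0.637) were the most opposed. These values describe 12 libraries that share treatment and replicate number.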

How the data were processed

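RNA-seq libraries of HUDEP-2 cells were analysed from 1 table of gene counts. Paired-end reads were mapped by the authors to hg38 (HISAT 2.1.0), and the deposited values are estimated counts from StringTie 2.1.1, with no scaling for depth or length and no pooling of replicates. StringTie derives counts from transcript coverage. The annotation release and the strand setting are not given in the sources used here, and the kit named in the labels is not the TruSeq kit for strand-specific libraries that the methods name, so genes that overlap a neighbour have uncertain counts. All deposited values were whole, and 0 were changed by rounding. The columns coded SG2 were taken as sgEGR1, since the labels hold no other targeting guide.

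The filterByExpr function of edgeR 4.0.16 (R 4.3.3) kept 15492 of 27654 genes with at least 1 count. Libraries were TMM-scaled, and differences were tested with the quasi-likelihood F test with 1 coefficient per group and all 12 libraries, with Benjamini-Hochberg adjustment over all tested genes and a threshold of 0.05. Standard errors were taken from the log2 fold change and its F value. Levels per length used the union of exons in GENCODE for GRCh38. The code was tested on simulated data. The alternatives were DESeq2 1.42.0 (the study's tool), other size factors, no filter, a replicate block, a term for replicate 1, replicates 2 and 3 only, only the groups compared, and each library left out in turn. The alternatives for EGR1 and the pathway lists were added after the data were seen. Residuals of same-numbered libraries correlated by 0.102 to 0.269 between guides, all above 0.1, so the numbers were taken to pair libraries there, where the block changed no call of a member. Values between guides come from the fit without the block unless the block is named. Between PBS and SCF these correlations were 0.00766 to 0.272. For replicate 1 they were 0.272 and 0.230 between PBS and SCF, and 0.232 and 0.269 between guides. Residuals were centred on the mean of each group, so a shift of replicate 1 shared by the groups also enters those of replicates 2 and 3. The correlations therefore cannot show by themselves that replicates 2 and 3 are paired.

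The 8 members and the lists were chosen with earlier results of these data known. Named genes were all members, EGR1, each list gene called after SCF, the list gene highest per length, and the 2 genes most alike to each member. The study's methods call the replicates biological, and the labels give only their number. Intervals and floors cover counting error and the spread between these libraries only. The sequence of the control guide is not reported here.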

Additional observations from a re-analysis of the deposited data

How the results depend on the processing

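Each result was recomputed under 20 alternatives for a comparison of 2 groups, 19 for averages and differences of responses and 15 for replicate 1. For SCF against PBS in sgControl cells the number of called members was 1, and it became 2 with DESeq2 (SKIL and TGIF1) and 3 with the replicate block, with a term for replicate 1, and with that term without sgEGR1 SCF replicate 3 (SKIL, TGIF1 and ID2 in each). It ranged from 0 to 1 when single libraries were left out. In sgEGR1 cells it became 0 with only the libraries of the groups compared (SKIL adjusted p 0.0681), and ranged from 0 to 1 when single libraries were left out. On average over both guides it became 3 with the block and with the term, and 2 with the term without sgEGR1 SCF replicate 3 (SKIL and ID2), and stayed at 1 when single libraries were left out. Between guides and for the difference of responses it stayed at 0 under every alternative run. For replicate 1 it ranged from 2 to 4 when single libraries were left out. The replicate block changed no other call of a member. The causes of these changes were not tested, apart from the loss of libraries. Of 929 recomputed member values, 81 had the opposite sign, and 0 of these were called in either fit. List genes called on average ranged from 3 to 6 without single libraries and from 5 to 9 otherwise. In single SCF comparisons the list calls reached at most 5 in sgControl and 6 in sgEGR1 cells. All genes called by edgeR after SCF numbered 448 and 402, against 759 and 773 by DESeq2, 1184 and 1235 with the block, and 192 and 250 with only the groups compared. Depth limits what can be said of ID3, SMAD7 and SMAD6.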
